A study of Mus musculus with 17 samples.

Results

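Ovariectomy (OVX) in fracture callus was examined on 4 of the 17 arrays in the series, the callus arrays whose titles open with a three-letter code and name the ovary surgery. OIB (mBCSPs) and OIS (mSSCs) are titled OVX, and SIB (mBCSPs) and SIS (mSSCs) are titled sham. On OIB and OIS the title and the source name say OVX while the treatment tag says sham with fracture, so the labels conflict, and both are called OVX-titled here. All 4 arrays hold RNA of cells from female C57BL/6 mice. By the study's methods the ovaries were removed, or left in place in the sham operation, at 8 weeks of age. A pinned femoral fracture followed 6 weeks later and callus cells were sorted 7 days after it, so both groups carry the abdominal operation and the fracture. Each population and surgery has 1 array, the labels do not say whether arrays stand for separate or pooled mice, and the RNA was amplified in repeated rounds. The comparison was therefore taken as 2 population-matched differences, OIB minus SIB for mBCSPs and OIS minus SIS for mSSCs, and the genes described are mainly those on which both agree. Set beside them were callus arrays of two-letter code (OB and OS from OVX mice, EB and ES from OVX mice given estradiol, SB and SS from sham mice), arrays of uninjured OVX (OUB, OUS) and sham mice (SUS, BU, SU), and callus of unstated surgery (SI, BI).

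Mouse skeletal stem cells (mSSCs) are self-renewing bone cells that can form cartilage, bone and stroma, and mBCSPs are their progenitor offspring, which carry CD105, the product of Eng. In a callus these cells lay down cartilage that is later replaced by bone. Estrogen from the ovary restrains bone resorption in the adult skeleton, in part through the osteoclast-forming cytokine RANKL (Tnfsf11) and its decoy receptor osteoprotegerin (Tnfrsf11b). Estradiol acts through the nuclear receptors Esr1 and Esr2 and the membrane receptor Gper1.

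Signals are log2 values after quantile normalization between arrays, with a floor at 5.95, and 14504 genes passed a filter on low signal. Deposited array medians were 7.86 and 7.86 (OVX-titled) and 7.75 and 7.78 (sham), and Spearman correlations among the 4 arrays ran from 0.888 to 0.956. The Actb control, a sign of RNA quality, had a 3' minus 5' log2 signal of 0.72 on OIB and 0.53 on OIS, against 0.30 on SIB and 0.57 on SIS. Eng was 9.37 on OIB and 7.67 on OIS, against 9.97 on SIB and 7.95 on SIS, higher on both mBCSP arrays. Cells were stained for sorting with antibodies that included AlphaV integrin, CD200, CD45, Tie2, Thy1 and 6C3. Itgav and Cd200 stood between 11.89 and 13.55 on all 4 arrays. Enpep, the gene of 6C3, was 7.33 on OIB and 8.34 on OIS, against 6.67 on SIB and 5.98 on SIS. Thy1 was 6.33 on OIB and 6.22 on OIS, against 6.91 on SIB and 6.84 on SIS. Ptprc, the gene of CD45, the common protein of white blood cells, was 12.02 on OIB and 13.53 on OIS, against 9.61 on SIB and 9.73 on SIS. Tek, the gene of the endothelial receptor Tie2, was 11.70 on OIB and 6.29 on OIS, against 9.88 on SIB and 6.56 on SIS, so both mBCSP arrays carried it.

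Both populations tended to differ in the same direction. Of 14504 genes, 417 (2.88%) were at least 2-fold higher and 292 (2.01%) at least 2-fold lower in OVX-titled callus in both mBCSPs and mSSCs, and 12 (0.0827%) were past 2-fold in opposite directions. In mBCSPs 15.1% and in mSSCs 10.7% of genes passed 2-fold in either direction. Both OVX-titled arrays stood above both sham arrays for 21.2% of genes and below both for 37.5%. Over all sizes 10398 genes (71.7%) had the same sign, 3943 (27.2%) higher and 6455 (44.5%) lower in both populations, and the 2 differences correlated across genes at r = 0.592, a description in which genes are not replicates. The median difference over all genes was -0.08 in mBCSPs and -0.15 in mSSCs. Measured from these medians, 528 genes were higher and 162 lower by 2-fold in both populations. With median centring in place of quantile normalization 357 were higher and 438 lower, so the balance of the directions depended on the scaling. By the smaller of the 2 log2 differences, at the threshold of 1, Abi3bp was just inside (1.0014) and Card10 just outside (0.9991) among higher genes, and Fasn just inside (-1.0001) and Prrx2 just outside (-0.9966) among lower ones.

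**Figure D1:**
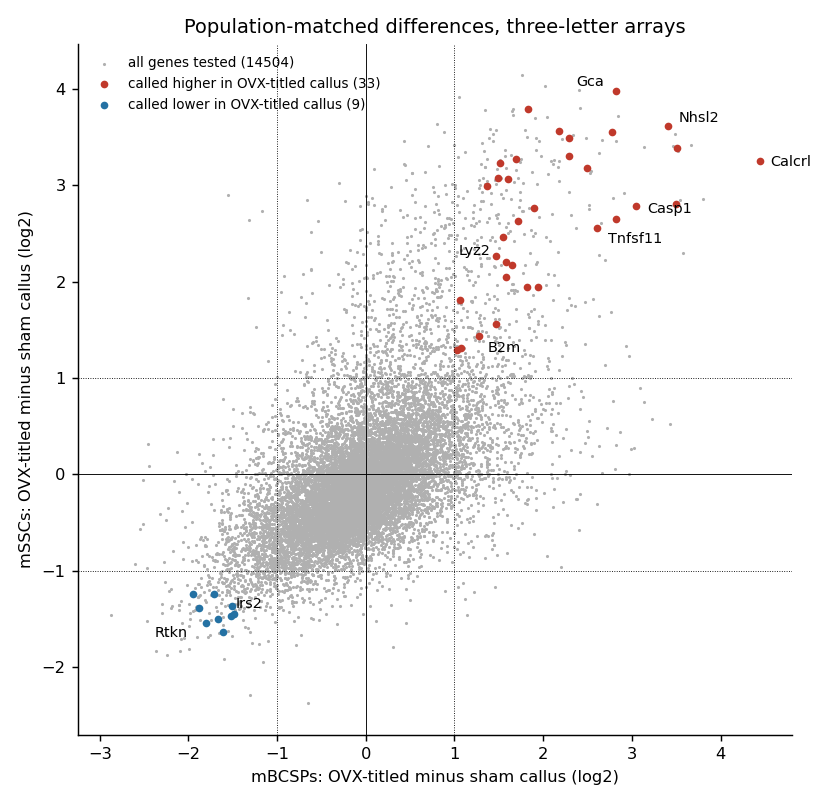
OVX-titled minus sham callus for each of 14504 genes (log2), mBCSPs on the horizontal and mSSCs on the vertical axis, with genes called by limma in red (33 higher) and blue (9 lower) and dotted lines at 2-fold. The cloud runs along the diagonal (r = 0.592), and called higher genes reach further from 0 (Calcrl, 3.85) than called lower genes (Rtkn, -1.67).

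In the limma fit over all 17 arrays, 42 genes (0.29%) differed between OVX-titled and sham callus at an adjusted p under 0.05, 33 higher (0.228%) and 9 lower (0.0621%), and 2259 (15.6%) had an unadjusted p under 0.05. The SE of this fit measures how the gap between mBCSPs and mSSCs varies over 8 pairs of arrays, not the spread between replicates of a surgery. The count depended on single arrays. It was 46 without OIB, but 0 without OIS, SIB or SIS and 0 without either OVX uninjured array, and it was 6 to 12 without any 1 of the two-letter callus arrays SB, SS, OB, OS, EB and ES. Without BU or SU it was 134 and 124, and without SI or BI it was 993 and 995. On the 10 callus arrays of stated or titled surgery it was 2095, all 42 among them, on the 4 arrays alone 0, and 0 with the mean of neutrophil and macrophage genes as a covariate.

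Neutrophil, macrophage, erythroid and mast cell genes were mostly higher, while B cell, T and NK cell and platelet genes were mixed. Of 15 neutrophil genes 14 were higher in both populations and 7 by 2-fold, with a median log2 fold change of 1.80 against -0.11 over all genes tested. Of 20 macrophage and monocyte genes 17 were higher in both, 8 of them by 2-fold (median 1.35), and of 8 erythroid genes 7, with 6 by 2-fold (median 1.83), where 27.2% of all genes tested were higher in both. Of 7 mast cell and basophil genes 5 were higher in both, 3 of them by 2-fold (median 1.42), and 2 were at the floor on both sham arrays. Of 13 B and plasma cell genes 4 were higher in both, of 7 T and NK cell genes 2, and of 8 platelet genes 1. The called members were Mmp8 among neutrophil genes and Fcgr3, Fcer1g and Lyz2 among macrophage genes, all higher. Of all genes tested 2.88% were 2-fold higher in both populations and 0.228% were called higher.

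Mmp8, the collagenase of neutrophil granules, had a log2 signal of 11.05 on OIB and 12.75 on OIS, against 8.76 on SIB and 9.45 on SIS (log2 fold change 2.80, SE 0.44, limma, adjusted p = 0.0315). Lyz2, the lysozyme of macrophages and granulocytes, had 14.12 and 14.94 in OVX-titled callus and 12.54 and 12.74 in sham callus (1.89, SE 0.33, adjusted p = 0.0499). Fcer1g, the signalling chain of Fc receptors, had 10.87 and 12.42 in OVX-titled callus and 9.38 and 9.35 in sham callus (2.28, SE 0.40, adjusted p = 0.0482). On each of these genes both OVX-titled arrays stood above both sham arrays, as for 21.2% of all genes, and the OVX-titled mSSC array stood highest. Fcgr3, a receptor for IgG, had 9.95 and 11.84 in OVX-titled callus and 8.35 and 8.78 in sham callus (2.33, adjusted p = 0.0308). S100a9, an abundant calcium-binding protein of neutrophils, had 13.41 and 14.60 in OVX-titled callus and 11.31 and 11.38 in sham callus and missed the threshold (2.66, adjusted p = 0.0507).

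Other called genes are also known from white cells. Fpr2, a receptor for formyl peptides (3.44), Alox5ap, which serves leukotriene synthesis (3.17), Gca, a calcium-binding protein of granulocytes (3.40), Il1f9, a cytokine of the interleukin-1 family (2.81), and Plbd1, a phospholipase-like protein (2.84), were called higher by limma with an adjusted p from 0.0204 to 0.0329. Parvg, a parvin of white cells (3.15), and Slfn1, a schlafen of lymphoid and myeloid cells (2.89), both had an adjusted p of 0.0482. Casp1, the protease that matures interleukin-1, had 9.0 and 9.84 in OVX-titled callus and 5.95 and 7.06 in sham callus (2.92, adjusted p = 0.0204). Pycard, its adaptor in the inflammasome, named after its value was seen, had 10.05 and 11.11, against 8.47 and 9.06 (1.81, adjusted p = 0.0482). For Gca and Casp1 SIB lay at the floor, so the size of their difference depends on it.

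The size of these differences was larger in mSSCs. The neutrophil list mean was 11.82 on OIB and 13.21 on OIS, against 10.73 on SIB and 10.55 on SIS, that of macrophage genes 8.37 and 9.70, against 7.56 and 7.68, and that of erythroid genes 10.24 and 11.69, against 8.96 and 9.05. The sham arrays lay close together, and OIS stood above OIB. No neutrophil or erythroid gene was at the floor on both sham arrays, and 3 macrophage genes were. Of the 417 higher genes, 282 differed by more in mSSCs and 135 in mBCSPs. In bulk RNA more cells of a type and more RNA per cell cannot be told apart. With the mean of neutrophil and macrophage genes as a covariate the median of erythroid genes was -2.74. The medians of neutrophil (0.41) and macrophage genes (-0.12) fell by construction, since the covariate was made of these same genes. The part of such cells in the other differences was not tested.

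**Figure D2:**
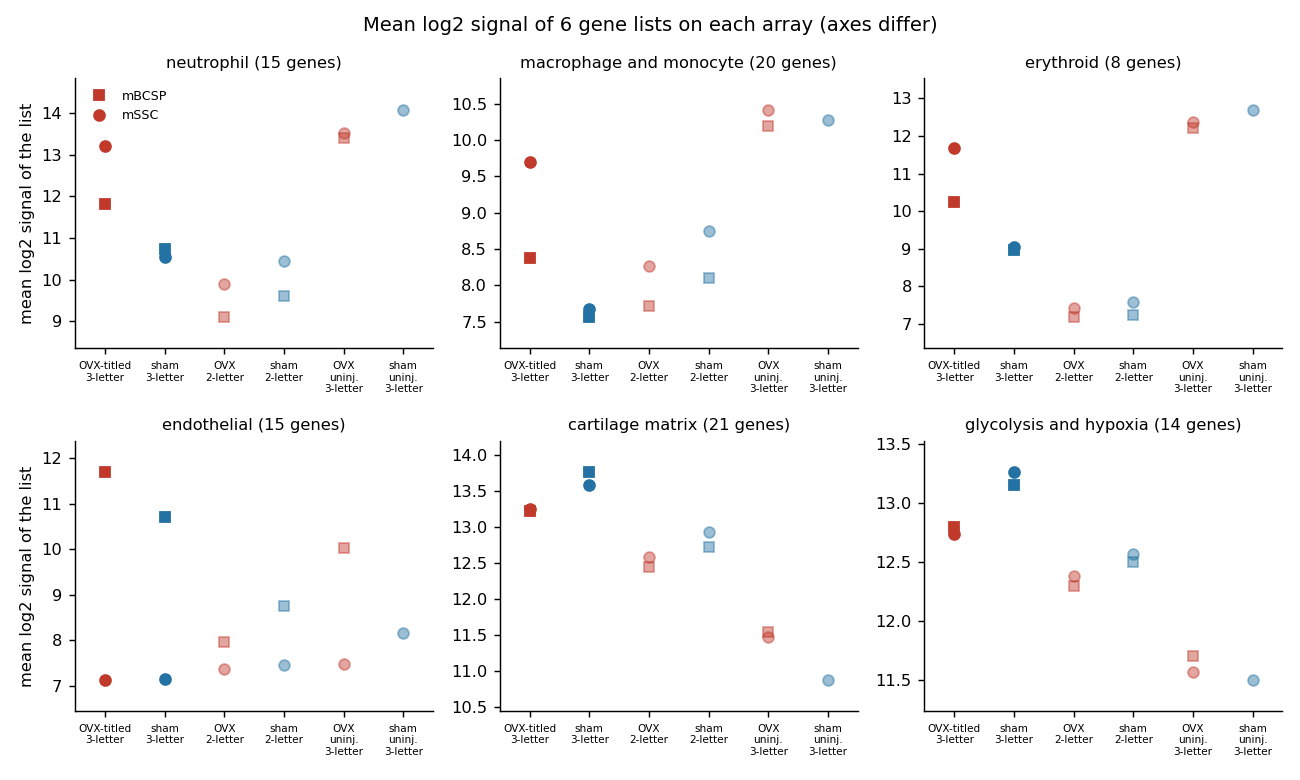
Mean log2 signal of 6 gene lists on single arrays, OVX-titled or OVX left of sham, with squares for mBCSPs and circles for mSSCs. Among the three-letter and two-letter callus arrays shown, neutrophil, macrophage and erythroid means were highest on OIS (13.21, 9.70 and 11.69), endothelial means were high on OIB and SIB (11.69 and 10.70), and cartilage and glycolysis means were lower on both OVX-titled arrays than on both three-letter sham arrays.

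Tnfsf11, which encodes RANKL, was called higher. Its log2 signal was 9.44 on OIB and 10.05 on OIS, against 6.83 on SIB and 7.5 on SIS. Both OVX-titled arrays thus stood above both three-letter sham arrays, as for 21.2% of all genes. The difference was 2.60 in mBCSPs and 2.55 in mSSCs (log2 fold change 2.58, SE 0.31, limma, adjusted p = 0.0166, or 5.97-fold). In each population, however, the OVX-titled array lay below the two-letter sham array (9.84 in mBCSPs and 10.85 in mSSCs). SIB and SIS were the lowest of all callus arrays, so they were the ones that stood apart. In uninjured bone of three-letter code Tnfsf11 was at 6.18 and 6.82 on the OVX arrays and at the floor on the sham one. Mmp8 and Fcer1g were higher there than in any three-letter callus. The part of marrow or unbroken bone in the Tnfsf11 difference was not tested. With the neutrophil and macrophage mean as a covariate the log2 fold change of Tnfsf11 was 2.40 (adjusted p = 0.197), and over all alternatives its adjusted p ran from 0.00473 to 0.224. A dimmer probe set of Tnfsf11 gave differences of 0.30 and 0.09, so the call rests on the brighter one.

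Of 7 osteoclast-directing factors 5 were higher and 2 lower in both populations (median 0.67), where 27.2% and 44.5% of all genes tested were. Tnfrsf11b, the decoy receptor of RANKL, had 12.03 and 12.10 in OVX-titled callus and 11.32 and 11.47 in sham callus (0.67, adjusted p = 0.596). Ccl9, a chemokine that attracts osteoclast precursors, had 9.58 and 11.22 in OVX-titled callus and 7.95 and 8.69 in sham callus (2.08, adjusted p = 0.198), while its other probe set gave 0.00 and -0.01. Among genes of osteoclasts themselves few agreed, and 1 of 8 was higher and 2 lower in both populations (median 0.05). Mmp13, the collagenase of hypertrophic chondrocytes and osteoblasts, had 13.87 and 13.91 in OVX-titled callus and 12.40 and 12.93 in sham callus (1.23, SE 0.26, adjusted p = 0.0661). Mmp9, the gelatinase of osteoclasts and neutrophils, had 12.41 and 13.75 in OVX-titled callus and 11.46 and 11.09 in sham callus (1.80, adjusted p = 0.0902). For both proteases the OVX-titled arrays stood above the sham arrays, as for 21.2% of all genes, and neither passed the test.

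Promoters of 4 called genes are shown because estradiol receptors bind DNA at the estrogen response element, in which the arm GGTCA is followed, after 3 bases of any kind, by its reverse complement. Tnfsf11, Fcer1g and Lyz2 were higher and Irs2 lower in OVX-titled callus. Each sequence runs from 250 bases before to 50 after a RefSeq start (GRCm38.p6), 5′ to 3′ on the gene's strand, with each single arm, on either strand, in capitals.
Tnfsf11: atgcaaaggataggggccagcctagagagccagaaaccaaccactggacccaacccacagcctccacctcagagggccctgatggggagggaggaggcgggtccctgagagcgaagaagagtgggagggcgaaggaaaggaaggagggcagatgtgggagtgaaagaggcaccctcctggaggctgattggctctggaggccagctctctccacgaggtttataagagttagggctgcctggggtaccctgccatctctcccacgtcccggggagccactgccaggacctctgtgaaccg
Fcer1g: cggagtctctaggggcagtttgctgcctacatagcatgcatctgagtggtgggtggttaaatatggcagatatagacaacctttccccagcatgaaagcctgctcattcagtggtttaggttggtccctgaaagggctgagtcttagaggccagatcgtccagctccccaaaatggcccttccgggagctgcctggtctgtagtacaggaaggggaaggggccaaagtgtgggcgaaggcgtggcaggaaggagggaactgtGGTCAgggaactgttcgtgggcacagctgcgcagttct
Lyz2: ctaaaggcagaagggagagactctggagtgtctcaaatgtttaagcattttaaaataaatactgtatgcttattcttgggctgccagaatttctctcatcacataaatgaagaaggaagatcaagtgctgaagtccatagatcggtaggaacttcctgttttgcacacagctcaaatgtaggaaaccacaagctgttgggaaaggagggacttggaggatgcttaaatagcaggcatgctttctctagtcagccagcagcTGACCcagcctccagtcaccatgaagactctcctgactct
Irs2: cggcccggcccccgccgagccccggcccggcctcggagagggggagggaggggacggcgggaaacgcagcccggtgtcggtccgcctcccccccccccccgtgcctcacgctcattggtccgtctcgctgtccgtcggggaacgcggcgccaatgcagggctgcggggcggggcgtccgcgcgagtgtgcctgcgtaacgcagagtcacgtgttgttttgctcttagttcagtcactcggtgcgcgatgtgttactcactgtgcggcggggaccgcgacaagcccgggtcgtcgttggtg
They lie on the minus strand, Tnfsf11 at chr14:78307994-78308293, Fcer1g at chr1:171234300-171234599, Lyz2 at chr10:117282223-117282522 and Irs2 at chr8:11008880-11009179. The single arm occurred once each in the windows of Fcer1g and Lyz2 and not in those of Tnfsf11 and Irs2. RefSeq promoters matched 28 of the 33 called higher and 8 of the 9 called lower genes. The arm was present in 14 of 31 promoters of called higher genes (45.2%) and 7 of 16 of called lower genes (43.8%), against 38.7% of promoters of genes tested and 40.5% of all 32851 promoters. Among the genes past 2-fold in both populations it was present in 36.1% of promoters of higher and 34.2% of lower genes. The full element was in 0 promoters of these 4 sets and in 23 of all promoters. A match is only a run of letters, and its absence from a window says nothing about the receptors.

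Some genes of vessels, fat and the marrow niche were also higher. Calcrl, the receptor for adrenomedullin and calcitonin gene-related peptide, had the highest log2 fold change of all 14504 genes. It stood at 11.01 on OIB and 9.27 on OIS, against 6.57 on SIB and 6.01 on SIS (3.85, SE 0.47, limma, adjusted p = 0.0166), and its other probe sets gave mean differences of 2.52 and 1.42. Two-letter sham callus stood at 9.98 and 9.59, nearer the OVX-titled than the three-letter sham level. Both OVX-titled arrays lay above both sham arrays on the probe set used, as for 21.2% of all genes. On 1 of the other probe sets OIS (8.85) and SIB (8.87) were level. Cxcl12, the chemokine that retains blood stem cells in marrow, had 11.81 and 11.27 in OVX-titled callus and 10.31 and 9.57 in sham callus (1.60, adjusted p = 0.149), and Lepr, the leptin receptor of marrow stroma, 9.98 and 9.06, against 8.46 and 8.29 (1.15, adjusted p = 0.352). Adipoq, which encodes the adipocyte hormone adiponectin, had 7.82 and 8.49 in OVX-titled callus and lay at the floor on both sham arrays, so its differences of 1.86 and 2.54 are lower bounds. Of 11 niche genes 8 were higher and 3 lower in both populations (median 0.64), and of 7 adipocyte genes 5 and 0 (median 0.85). Of all genes tested 27.2% were higher and 44.5% lower in both.

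Endothelial genes separated the populations more than the surgeries. Their list mean was 11.69 on OIB and 7.13 on OIS, against 10.70 on SIB and 7.15 on SIS, and 5 of 15 were higher and 1 lower in both populations, none past 2-fold and none called. Cdh5, the cadherin of endothelial junctions, had 12.73 and 6.63 in OVX-titled callus and 12.33 and 6.4 in sham callus (0.32, adjusted p = 0.932). The part of endothelial RNA in the mBCSP differences was not tested.

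B2m was the 1 member called among interferon response and antigen presentation genes. B2m, the light chain of class I molecules, had 13.91 and 13.68 in OVX-titled callus and 12.64 and 12.24 in sham callus (1.36, SE 0.20, limma, adjusted p = 0.0308), and Psmb9, an immunoproteasome subunit, 9.54 and 10.04, against 8.61 and 7.39 (1.80, adjusted p = 0.0736). Rtp4, an interferon-induced chaperone, had 9.85 and 9.54 in OVX-titled callus and 7.03 and 6.90 in sham callus (2.73, adjusted p = 0.0166), but a second, dimmer probe set gave 0.15 and -0.07. Ifitm3, an interferon-induced protein that restricts viruses, had 13.89 and 13.65, against 12.83 and 11.84 (1.44, adjusted p = 0.0499). Rtp4 and Ifitm3 were named after their values were seen. Of 14 interferon response genes 9 were higher and 1 lower in both populations (median 0.51), where 27.2% and 44.5% of all genes tested were. Among 12 antigen presentation genes the counts were 7 and 2 (median 0.45). With the mean of neutrophil and macrophage genes as a covariate the medians were 0.15 and -0.27. Nhsl2, a relative of the Nance-Horan syndrome gene, had 11.09 and 11.40 in OVX-titled callus and 7.68 and 7.78 in sham callus (3.51, adjusted p = 0.0166), and its 2 other probe sets were also higher in each population. Two-letter sham callus lay between these levels, at 9.17 and 10.15.

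**Figure D3:**
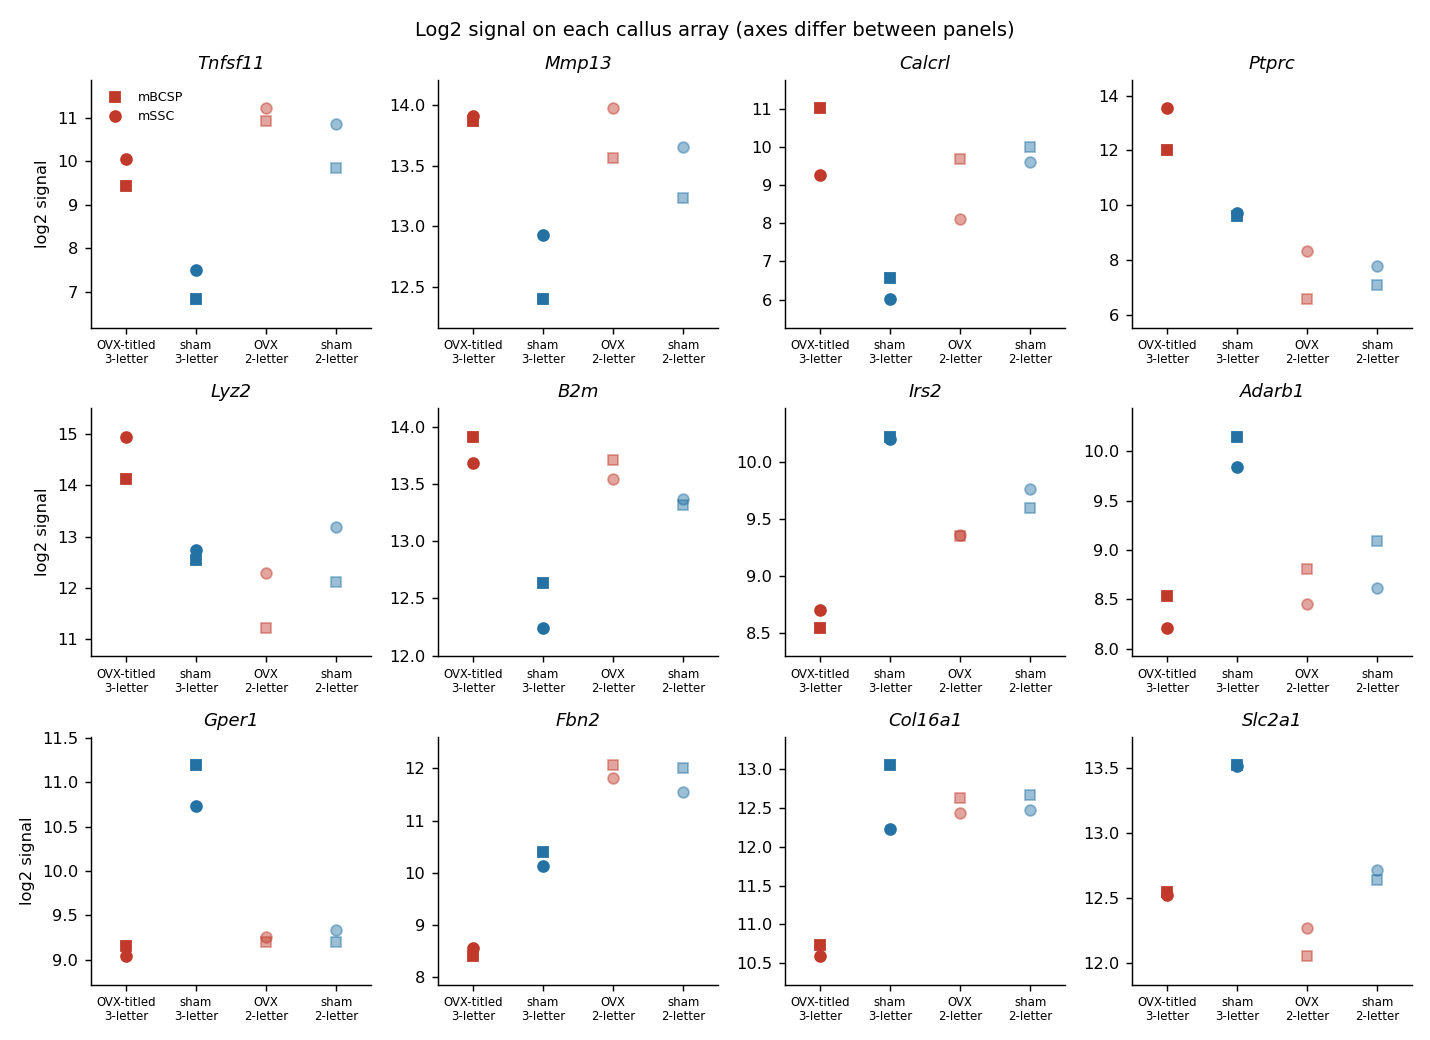
Log2 signal of 12 genes on single callus arrays, OVX-titled or OVX left of sham, three-letter before two-letter arrays, with squares for mBCSPs and circles for mSSCs. For each gene shown the OVX-titled arrays lie on the same side of both three-letter sham arrays, as for Tnfsf11 (9.44 and 10.05, against 6.83 and 7.5), and the two-letter arrays differ by less on average. Over all genes the OVX-titled arrays lay above both sham arrays for 21.2% and below both for 37.5%.

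The 9 genes called lower differed by like amounts, -1.67 to -1.44, with an adjusted p from 0.0308 to 0.0499 in limma. Irs2, a docking protein of insulin and IGF1 receptors, had 8.55 and 8.70 in OVX-titled callus and 10.22 and 10.20 in sham callus (-1.58, SE 0.25). Adarb1, an RNA-editing deaminase, had 8.53 and 8.21, against 10.15 and 9.84 (-1.62, SE 0.25), with other probe sets at -1.07 and -1.38 and at -0.06 and -1.20 in mBCSPs and mSSCs. Cpxm2, a secreted carboxypeptidase-like protein, had 10.17 and 10.19, against 11.66 and 11.63 (-1.47, SE 0.23). On these genes arrays of the same surgery lay close together, and the OVX-titled arrays lay below both sham arrays, as for 37.5% of all genes. The genes were picked by the test on these same arrays, so their separation is no independent check.

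Other called lower genes included Dok1, an adaptor of tyrosine kinases (-1.64), Rap1gap, which switches off Rap1 (-1.5), Kcna6, a potassium channel (-1.48), and Cul7, the scaffold of a ubiquitin ligase (-1.44). Genes with agreeing lower values that missed the threshold were Kcns1, a potassium channel subunit (-2.10, adjusted p = 0.0611), Slc27a3, of the fatty acid transport family (-2.06, adjusted p = 0.114), Col16a1, a fibril-associated collagen (-1.97, adjusted p = 0.056), Dlk2, a relative of Notch ligands (-1.90, adjusted p = 0.0763), Pkdcc, a secreted kinase needed for long bones (-1.79, adjusted p = 0.0527), and Atoh8, a transcription factor (-1.71, adjusted p = 0.0527). Of the 292 genes 2-fold lower in both populations, 232 differed by more in mBCSPs and 60 in mSSCs, the reverse of the higher set.

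Cartilage genes had lower values in OVX-titled callus without any call. Of 21 cartilage matrix genes 15 were lower and 4 higher in both populations, where 44.5% and 27.2% of all genes tested were. Past 2-fold lower were 2, where 2.01% of all genes were, and the median was -0.39 against -0.11 over all genes tested. Matn4, a matrilin of the cartilage matrix, had 8.77 and 9.06 in OVX-titled callus and 11.23 and 10.59 in sham callus (-1.99, adjusted p = 0.114). Col11a2, a collagen of cartilage fibrils, had 13.36 and 13.49, against 14.58 and 14.30 (-1.01, adjusted p = 0.206). The chondrogenic transcription factors Sox5 and Sox9 had 9.55 and 9.76, against 10.73 and 10.84 (-1.12, adjusted p = 0.136) and 11.92 and 11.88, against 12.48 and 12.49 (-0.58, adjusted p = 0.549). On each of these genes the OVX-titled arrays lay below both sham arrays, as they did for 37.5% of all genes. Of 9 hypertrophic cartilage genes 4 were higher and 4 lower (median -0.12).

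In the BMP list 12 of 21 genes were lower and 1 higher in both populations (median -0.22), with none called, where 44.5% of all genes tested were lower and 27.2% higher in both. Id1, a direct transcriptional target of BMP receptors, had 10.08 and 9.90 in OVX-titled callus and 11.69 and 11.47 in sham callus (-1.59, adjusted p = 0.0852), and the inhibitory Smads that the same pathway induces were at -1.22 (Smad6) and -1.12 (Smad7). In the hedgehog list 7 of 13 were lower and 2 higher (median -0.25). Gli1, transcribed in response to hedgehog ligand, had 7.71 and 7.90 in OVX-titled callus and 9.99 and 8.81 in sham callus (-1.59, adjusted p = 0.128), while Gas1, a hedgehog co-receptor, had 12.26 and 12.21, against 10.50 and 10.98 (1.5, adjusted p = 0.19). In the Wnt list 13 of 23 were lower and 5 higher (median -0.32). No member of these lists was called. Secreted Wnt inhibitors differed in direction, with Wif1 at 11.27 and 11.35, against 9.06 and 9.83 (1.87, adjusted p = 0.0603) and Sfrp1 at 9.24 and 8.65, against 10.87 and 10.10 (-1.54, adjusted p = 0.16).

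In the IGF list 8 of 12 genes were lower and 2 higher in both populations, where 44.5% and 27.2% of all genes tested were. The list median was -0.48, or 0.09 with the neutrophil and macrophage covariate, and Irs2 was the called member. Igf2, a fetal growth factor, had 12.68 and 12.51 in OVX-titled callus and 13.64 and 13.61 in sham callus (-1.03, adjusted p = 0.399). Igfbp5, an IGF binding protein of bone, had 12.81 and 12.74, against 11.39 and 11.75 (1.21, adjusted p = 0.0928). The surgeries did not overlap on either gene, but the directions differed. Over all genes the OVX-titled arrays lay below both sham arrays for 37.5% and above both for 21.2%.

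**Figure D4:**
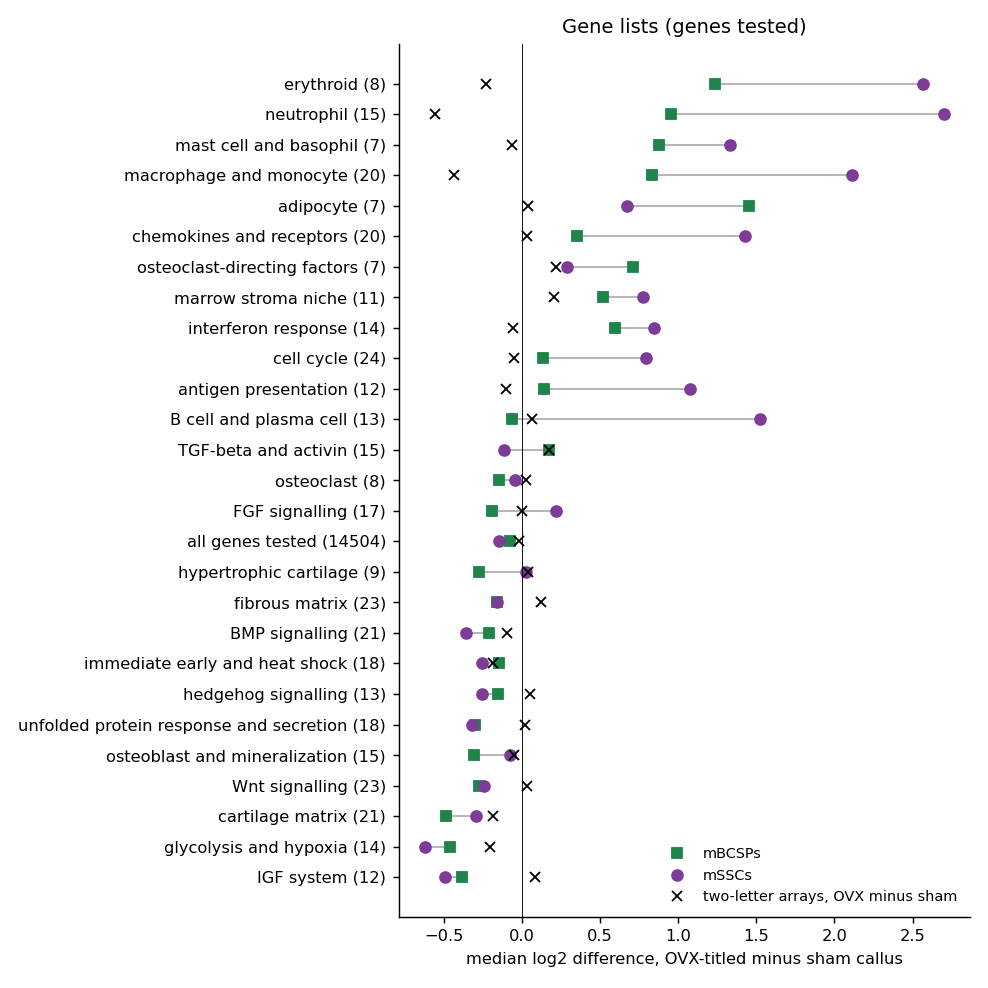
Median log2 difference of the tested genes of 26 gene lists and of all genes, OVX-titled minus sham callus in mBCSPs (squares) and mSSCs (circles), with crosses for OVX minus sham on two-letter arrays. Erythroid and neutrophil lists lie far to the right, mSSCs beyond mBCSPs (neutrophil 2.70 in mSSCs), and glycolysis and IGF lists to the left of all genes.

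Genes of glycolysis and of the secretory pathway had lower values as well, with none called. Over all genes tested 44.5% were lower and 27.2% higher in both populations. Of 14 glycolysis and hypoxia genes 10 were lower and 1 higher in both populations (median -0.44). Slc2a1, the glucose transporter GLUT1, had 12.55 and 12.53 in OVX-titled callus and 13.52 and 13.52 in sham callus (-0.98, adjusted p = 0.202), and Pkm, pyruvate kinase, 13.37 and 13.43, against 14.31 and 14.19 (-0.85, adjusted p = 0.0786). Arrays of the same surgery lay much closer together on both genes than the surgeries did. The OVX-titled arrays lay below both sham arrays on both, as for 37.5% of all genes, and neither gene passed the test. Of 18 genes of the unfolded protein response and secretion 13 were lower and 1 higher (median -0.26), with Creb3l1, a transcription factor for collagen secretion, at 9.57 and 9.47, against 11.38 and 10.80 (-1.57, adjusted p = 0.134). Of 18 immediate early and heat shock genes, which respond to handling as well as to growth factors, 10 were lower and 4 higher. These counts are not far from the shares of all genes. Nr4a1 had 10.95 and 11.51, against 12.80 and 12.35 (-1.34, adjusted p = 0.0611). Of 24 cell cycle genes 14 were higher and 2 lower, none of them called. Their median was 0.47, and -0.045 with the neutrophil and macrophage covariate, with Pcna, the DNA polymerase clamp, at 13.04 and 13.44, against 12.16 and 12.31 (1.0, adjusted p = 0.231).

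Among estrogen receptors, Gper1 had the largest difference, but it missed the threshold. Gper1 was 9.15 on OIB and 9.04 on OIS, against 11.19 on SIB and 10.73 on SIS (-1.87, SE 0.34, limma, adjusted p = 0.0527). Both OVX-titled arrays lay below both sham arrays, as for 37.5% of all genes, and a second probe set gave -1.03 and -1.52. On the 4 two-letter callus arrays of OVX and sham mice Gper1 lay between 9.20 and 9.33, near the OVX-titled level, so SIB and SIS were the arrays that stood apart. Esr1 had 8.87 and 9.29 in OVX-titled callus and 8.76 and 8.74 in sham callus (0.33, SE 0.32, adjusted p = 0.653), but its other probe sets gave -1.68 and -1.33 in mBCSPs and 0.72 and 0.88 in mSSCs, so no direction can be given. Esr2 had 7.49 and 7.13 in OVX-titled callus and 7.49 and 7.36 in sham callus (-0.12, SE 0.36, adjusted p = 0.903). These signals lay near the low-signal filter of 7.20, that of OIS below it, so little can be read from the small difference. Pgr and Fshr were too dim to be tested. Of 17 genes that estrogen regulates in other tissues 10 were lower and 6 higher in both populations (median -0.30), where 44.5% and 27.2% of all genes tested were, and 0 were called by limma.

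The skeletal genes that the study names were chosen on its own arrays and are no independent set, and none of the 10 tested was called. Fbn2, a microfibril protein, had 8.41 and 8.55 in OVX-titled callus and 10.41 and 10.13 in sham callus (-1.78, SE 0.42, adjusted p = 0.0897). Col14a1, a collagen of fibril surfaces, had 8.93 and 8.32, against 10.43 and 9.77 (-1.48, SE 0.79, adjusted p = 0.399), and Fgfr2, a growth factor receptor of osteoprogenitors, 9.93 and 9.95, against 10.95 and 11.04 (-1.05, SE 0.72, adjusted p = 0.515). These genes were past 2-fold lower in both populations, as were 2.01% of all genes. Their OVX-titled arrays lay below both sham arrays, as for 37.5% of all genes. Ihh, the hedgehog ligand of prehypertrophic cartilage, had 12.16 and 12.60 in OVX-titled callus and 12.44 and 12.58 in sham callus (-0.12), and Bmp1, the procollagen protease, 11.07 and 10.57, against 11.23 and 10.88 (-0.24), with overlapping groups, although another probe set of Bmp1 gave -1.67 and -0.84. Bmp2, an inducer of bone, had 12.63 and 12.62, against 12.46 and 12.58 (0.11), a smaller difference than its SE of 0.41.

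Osm, a cytokine of myeloid cells that acts on osteoblasts, had 11.15 and 12.66 in OVX-titled callus and 9.41 and 9.41 in sham callus (2.49, SE 0.65, adjusted p = 0.112), and Ltf, the lactoferrin of neutrophil granules, 13.50 and 14.61, against 12.56 and 12.29 (1.63, SE 0.47, adjusted p = 0.139). Among the 4 arrays both genes were highest on OIS, as the neutrophil list was. Lifr, a receptor subunit that Osm can use, had 11.42 and 10.91 in OVX-titled callus and 9.80 and 9.49 in sham callus (1.52, adjusted p = 0.155), whereas Lif, another ligand of Lifr, had 8.82 and 8.89, against 9.83 and 10.07 (-1.1, adjusted p = 0.371). Efna2, an ephrin ligand, had 8.25 and 8.36, against 8.68 and 9.06 (-0.56, adjusted p = 0.378).

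Whether the difference depended on the population was tested as an interaction with 5 residual degrees of freedom. Limma called 0 genes between the mBCSP and the mSSC difference, with 206 (1.42%) at an unadjusted p under 0.05, and 48 genes when no filter on low signal was used. The larger neutrophil and macrophage differences in mSSCs are given as values of these arrays, since no gene passed the test of that difference.

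The 4 two-letter arrays, OB and OS from OVX callus and SB and SS from sham callus, gave smaller differences. Of the same genes 27 (0.186%) were 2-fold higher and 31 (0.214%) 2-fold lower in both populations, 22 (0.152%) were past 2-fold in opposite directions, and 2.34% in mBCSPs and 5.96% in mSSCs passed it in either. The sign agreed for 55.9% of genes, the differences of mBCSPs and mSSCs correlated at r = 0.161, and limma called 0 genes, with 293 (2.02%) at an unadjusted p under 0.05. Between the three-letter and the two-letter effect limma called 0 genes, with 861 (5.94%) at an unadjusted p under 0.05, and 2 without the filter, so the effects were not shown to differ gene by gene. The title forms also differed among arrays whose titles name the same surgery, though the treatment tag of OIB and OIS says sham. Three-letter sham callus was 2-fold higher than two-letter sham callus in both populations for 424 genes (2.92%) and lower for 421 (2.9%), and OVX-titled callus was higher than two-letter OVX callus for 673 genes (4.64%) and lower for 611 (4.21%).

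All 9 genes called lower on the three-letter arrays were below 0 in both two-letter differences (median -0.21), where 30.1% of all genes were. Of the 292 genes 2-fold lower in both populations 162 (55.5%) were below 0 in both. Of the 417 higher genes 122 (29.3%) were above 0 in both two-letter differences, where 25.8% of all genes were, and 102 (24.5%) were below 0 in both. Among called higher genes Tnfsf11 had 10.92 and 11.22 in OVX and 9.84 and 10.85 in sham two-letter callus (0.73, SE 0.31), and Megf10, an engulfment receptor named after its value was seen, 8.10 and 8.52 in OVX and 6.92 and 6.19 in sham two-letter callus (1.75, SE 0.33). Lyz2 had 11.23 and 12.30 in OVX and 12.12 and 13.19 in sham two-letter callus (-0.89, SE 0.33), and Calcrl 9.68 and 8.11 in OVX and 9.98 and 9.59 in sham two-letter callus (-0.89, SE 0.47). None of these two-letter values passed the test. The level of two-letter sham callus differed between called genes. As for Calcrl, it lay nearer the OVX-titled than the three-letter sham level for Casp1 (8.52 and 8.61), B2m (13.31 and 13.37) and Adarb1 (9.10 and 8.62). For Irs2 (9.60 and 9.76) it lay nearer the three-letter sham level, and for Mmp8 (5.95 and 7.72) beyond it.

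**Figure D5:**
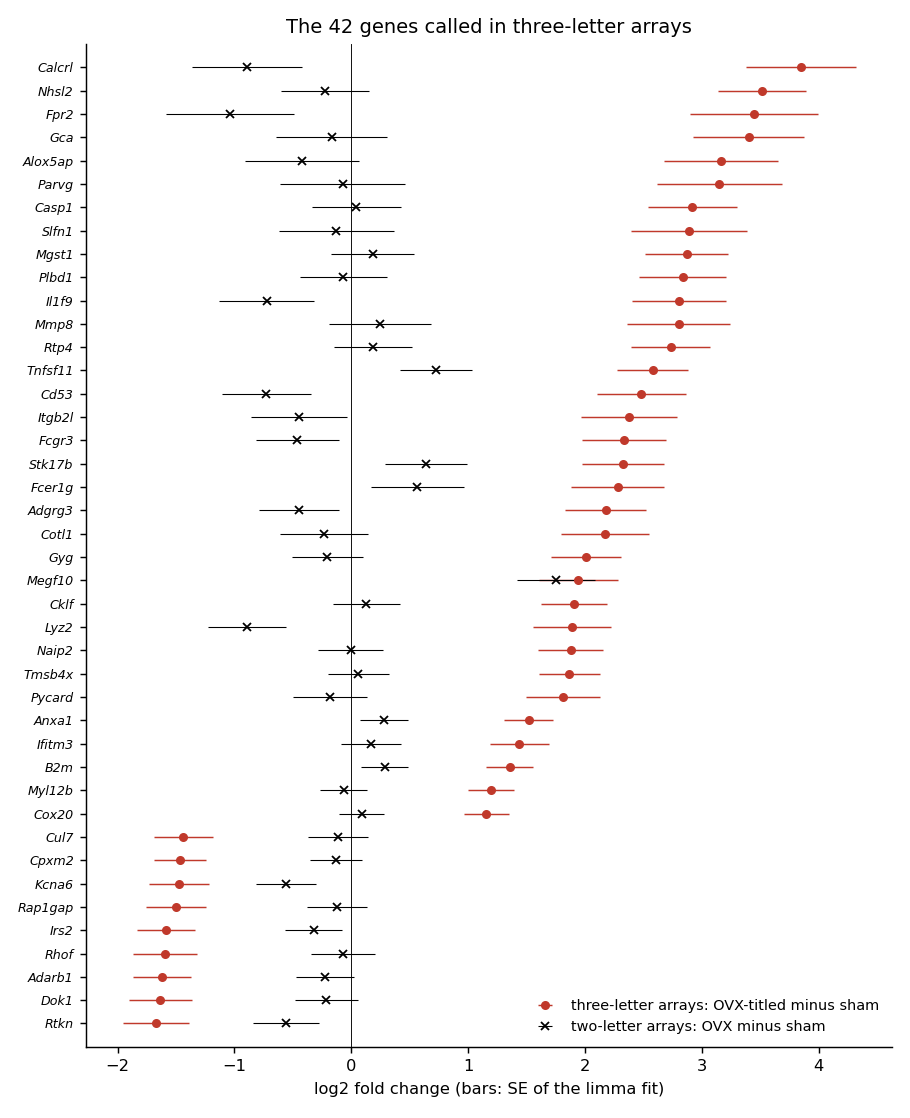
Log2 fold change of the 42 genes called on three-letter arrays, OVX-titled minus sham (red, bars of 1 SE from limma), with OVX minus sham on two-letter arrays as black crosses. The 9 lower genes lie left of 0 on both sets of arrays, while the 33 higher genes scatter about 0 on the two-letter arrays (median -0.07), with Megf10 at 1.75.

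The OVX-titled callus arrays stood nearer to uninjured bone than the sham callus arrays did. Spearman correlations with the OVX uninjured arrays of three-letter code ran from 0.816 to 0.896 for OVX-titled and from 0.709 to 0.758 for sham callus, while those with two-letter callus ran from 0.866 to 0.915 and from 0.908 to 0.934. On the arrays BU, SU, BI and SI 194 of the 417 higher genes (46.5%) were 2-fold higher in uninjured bone than in callus of unstated surgery in both populations, where 7.66% of all genes were. Of the 292 lower genes 74 (25.3%) were 2-fold lower there, where 8.51% of all genes were. On the OVX uninjured arrays Mmp8 stood at 13.28 and 13.54, above the OVX-titled callus arrays, and Cul7 at 8.44 and 8.25, below all 4 three-letter callus arrays (11.37 and 11.12, against 12.88 and 12.48). The labels do not say how much marrow or unbroken bone a callus sample held, and its part in the difference was not tested.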

How the data were processed

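Sorted mSSCs and mBCSPs were measured on 17 Affymetrix mouse expression arrays. Per the study's methods RNA was amplified in 2 rounds and the arrays were processed with dChip and set against a common reference, while the submitters' processing notes name MAS5, so the tool behind the deposited log2 signals is not settled. The authors deposited 1 log2 value per probe set and array. Of 45101 probe sets 64 were controls, 34945 had 1 gene symbol, 932 several and 9160 none. The number of arrays limits the precision.

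Values were quantile normalized, floored at the 20th percentile and kept where at least 2 arrays reached the 40th. The probe set of highest mean stood for each of 18193 genes, 14504 of which were tested. Groups came from titles and source names. Limma 3.58.1 (R 4.3.3) fitted 9 sets of arrays and a population term on all arrays (7 residual degrees of freedom), moderated with a trend, with Benjamini-Hochberg adjustment. Pairs are the mSSC and mBCSP arrays of a set. P-values measure only the spread between these arrays, which may be technical. The script was tested on simulated data. Genes were named by a rule: those the study names, the called genes of largest difference, those of largest agreeing and opposing difference, and up to 5 of each list. The members and the 41 lists were chosen with earlier results of these data known. Normalization, floor, filter, probe set, model and arrays were varied. Promoters came from RefSeq tables. Some called lower genes are counted but not reported here by name.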

Additional observations from a re-analysis of the deposited data

Results flagged for a closer look

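For 13 of 41 gene lists the mean difference between OVX-titled or OVX and sham callus ran in opposite directions on the three-letter and two-letter arrays, in both populations of each. The mean log2 difference of the neutrophil list was 1.88 on three-letter and -0.53 on two-letter arrays, with 1.1 in mBCSPs and 2.66 in mSSCs on three-letter arrays, and -0.51 and -0.56 on two-letter arrays. That of the macrophage and monocyte list was 1.41 on three-letter and -0.43 on two-letter arrays, with 0.81 in mBCSPs and 2.02 in mSSCs on three-letter arrays, and -0.38 and -0.48 on two-letter arrays. That of the 3 sex hormone receptors tested was -0.55 on three-letter and 0.32 on two-letter arrays, with -0.65 in mBCSPs and -0.46 in mSSCs on three-letter arrays, and 0.54 and 0.11 on two-letter arrays. Single genes carried this mean, since Gper1 was at -1.87 on three-letter and -0.04 on two-letter arrays, Esr1 at 0.33 and 0.83, and Esr2 at -0.12 and 0.17. On three-letter and two-letter arrays, in this order, the other means were 0.12 and -0.14 for osteoclast genes, 1.96 and -0.12 for erythroid genes, 1.06 and -0.06 for mast cell and basophil genes, -0.30 and 0.11 for fibrous matrix, -0.17 and 0.03 for Wnt signalling. They were 0.32 and -0.05 for the IL-6 family, 0.59 and -0.13 for antigen presentation, 0.42 and -0.09 for the cell cycle, 0.19 and -0.23 for cell cycle inhibitors and p53 targets and -0.46 and 0.05 for the unfolded protein response. The difference between the sets of arrays was not tested for these means, the 2 sets share no array, and the treatment tag of OIB and OIS goes against their titles.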

How the results depend on the processing

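In place of 42 called genes there were 27 on deposited values without quantile normalization, 21 with median centring (18 higher and 3 lower), 9 with the probe set of widest range per gene, 24 (6 higher and 18 lower) with the ordinary statistic of the same model without moderation, and 38 with no filter on low values, of which 14 were higher and 24 lower. Of these calls 26, 20, 9, 12 and 21, in the same order, were among the 42. The population term is what pairs the arrays, and without it (no replicate block) 10 genes were called. The fit on the 10 callus arrays called 2095, and those on the 4 arrays alone and with the neutrophil and macrophage covariate called 0. Leaving out each array in turn gave 0 to 995 calls. A threshold of 1.5-fold gave 2397 agreeing genes in place of 709 and one of 4-fold gave 57, all higher. Without the filter 48 genes differed between populations (14 higher and 34 lower in mBCSPs relative to mSSCs) and 2 between title forms. Counts of 2-fold genes measured from the median difference, and without genes at the floor (666), were added after seeing the data. The cause of these shifts was not tested.

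Of 101 genes examined in this way, the 30 called kept their sign under every alternative run. They were picked by the test on these same arrays, so a kept sign is no independent check. On the 4 arrays alone and with the covariate, 0 of the 30 stayed called. Signs turned with the covariate for Esr2 0.19, Ihh 0.43, Bmp2 -0.94, Tnfrsf11b -0.91, Car2 -0.63, Rhag -2.96, Eng 0.36, Cd200 -0.72, Pcna -0.032, Mcm3 -0.058, Dmp1 -0.82. With the probe set of widest range they turned for Esr1 -0.48, Smo 0.30, Igk -0.11, Eng 0.091, Itgav -0.030, and with median centring for Bmp2 -0.051. Leaving out 1 of the 4 arrays turned the sign of Esr2 (-0.31 to 0.075), Ihh (-0.42 to 0.17), Bmp2 (-0.085 to 0.30), Cdh5 (-1.65 to 2.29), Sox17 (-0.94 to 3.09), Tek (-1.29 to 2.85), depending on the array, with Cdh5, Sox17 and Tek below 0 without OIB or SIS. Among 41 list medians, 34 moved by more than the spread with the covariate, 16 with median centring and 0 without the floor. With 1 array per population and surgery no difference has a replicate check, and signals near the floor understate a difference.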

Other observations

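Further lists were counted in the same way, as genes with the same sign in both populations of OVX-titled against sham callus, and limma called no member of them. Over all genes tested 27.2% were higher and 44.5% lower in both. Chemokines and their receptors had 14 higher and 4 lower of 20 (median 0.76), with Ccr1, a receptor of monocytes and granulocytes, at 10.05 and 11.91 in OVX-titled callus and 7.22 and 8.46 in sham callus (3.14, adjusted p = 0.056). Mast cell and basophil genes had 5 higher and 1 lower of 7 (median 1.42), B cell and plasma cell genes 4 higher and 1 lower of 13 (median 0.44), T and NK cell genes 2 higher and 0 lower of 7 (median 0.12), and platelet genes 1 higher and 3 lower of 8 (median -0.13). Igk, the immunoglobulin light chain locus, had 13.67 and 14.64 in OVX-titled callus and 10.15 and 11.28 in sham callus (3.44, adjusted p = 0.056) on the probe set of highest mean, while another gave -0.79 and 0.58, and Rhag, of the red cell membrane, 9.82 and 11.34, against 7.48 and 7.82 (2.93, adjusted p = 0.507). Among the 4 arrays Igk and Rhag were highest on OIS. Osteoblast and mineralization genes had 5 higher and 8 lower of 15 (median -0.28), with Dmp1, a matrix protein of osteocytes, at 10.05 and 10.78, against 8.21 and 9.15 (1.74, adjusted p = 0.377), and fibrous matrix genes had 4 higher and 13 lower of 23 (median -0.18).

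Lists with little or mixed difference were muscle with 1 higher and 4 lower of 8 (median -0.22), cholesterol synthesis with 1 higher and 6 lower of 11 (median -0.17), mitochondrial respiration with 6 higher and 3 lower of 16 (median 0.09), TGF-beta and activin with 5 higher and 6 lower of 15 (median 0.10), Notch with 4 higher and 2 lower of 12 (median 0.13) and FGF signalling with 4 higher and 5 lower of 17 (median 0.01). The median over all genes tested was -0.11.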
